A study of Mus musculus with 3 samples.

Results

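Adipose-associated genes were followed in mouse liver RNA set against mouse spleen RNA. The set holds 7 genes, named for their known link to fat with earlier results of these data in view, and their probes were found by symbol in the platform annotation: Adipoq, Retn, Lpl, Fabp4, Cidec, Ucp1 and Car3. Of the 10698 genes with a symbol of their own on the array, these 7 are read by 10 of the 16281 probes, 3 of them for Fabp4, 2 for Ucp1 and 1 for each other gene. The study hybridized 3 two-colour oligonucleotide arrays. On every array a commercial liver total RNA carried the red dye Cyanine-5 and a commercial spleen total RNA carried the green dye Cyanine-3, each made into labelled cRNA by a single-round method. The labels name 1 product per tissue and give no strain, sex, age or number of animals. They do not say whether lots, amplifications or only hybridizations were repeated. All 3 arrays were taken to repeat the same pair of RNAs, and every SD and p-value reflects differences among arrays that may be purely technical. No array had the dyes exchanged, so the tissue difference of a probe and its dye bias cannot be told apart.

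White fat cells store triglyceride in lipid droplets and release hormones, while brown fat cells burn fatty acids to make heat. Adiponectin (Adipoq) and, in mice, resistin (Retn) are hormones secreted by white fat cells, and Ucp1 is the uncoupling protein of brown fat mitochondria. These 3 genes were taken as fat markers. The other 4 are abundant in fat and are also active elsewhere. Lipoprotein lipase (Lpl) is made by muscle, heart and macrophages, and the fatty acid carrier Fabp4 by endothelial cells and macrophages. The droplet protein Cidec is made in liver when it stores fat, and the carbonic anhydrase Car3 in muscle and liver. Liver and spleen have no fat cells as a defining cell type, though fat lies close to the spleen.

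Each deposited value is 1 log ratio of the channels per probe and array, with a base of 2 inferred from the values. A value of 1 is a 2-fold difference. Positive values were taken to mean higher in liver, the likely direction, since the labels do not say which channel was on top. The sample titles name spleen before liver. The direction rests on the sign of known genes. The liver glycoprotein gene Ahsg read 4.04, 3.45 and 3.80 on arrays 1, 2 and 3. Its probe was the only 1 of 7 liver probes measured on all arrays. The median of the measured probes of 8 spleen genes lay at -1.53, -1.71 and -1.31. Of 12 such spleen probes measured on all arrays, 9 passed the test below 0 and 3 did not pass. An exact 0 was taken as no measurement. All 10 member probes had a value on all 3 arrays, as did 14122 probes in all. Neither channel's own level was used here, so the values give differences and not the level of a gene in either tissue. In these bulk RNAs, fewer cells of a type and less RNA per cell cannot be told apart.

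The 7 genes did not move as a group. Among the fat markers, Adipoq was higher in spleen, Retn was higher in liver, and neither Ucp1 probe passed the test. Among the genes also active elsewhere, Car3 was 12.6-fold higher in liver and Lpl was 3.13-fold higher in spleen, while Cidec was modestly higher in liver and Fabp4 differed by probe. With limma's test against 0 and an adjusted p under 0.05, 3 member probes passed toward liver, 4 passed toward spleen and 3 did not pass. Of all 14122 probes tested, 23.5% passed toward liver, 26.7% toward spleen and 50.2% in either direction. The share of member probes that passed was 70.0%, of only 10 probes. At 2-fold or more as well, Car3 and Lpl were the member probes that remained, against 8.85% of all probes toward liver, 9.13% toward spleen and 18.0% in either direction. With the probes of a gene averaged, 4 of the 7 genes passed toward liver and 3 toward spleen, against 25.3%, 27.4% and, in either direction, 52.8% of 9803 genes. The median over the 10 member probes was 0.08, and over all probes tested 0.02.

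**Figure D1:**
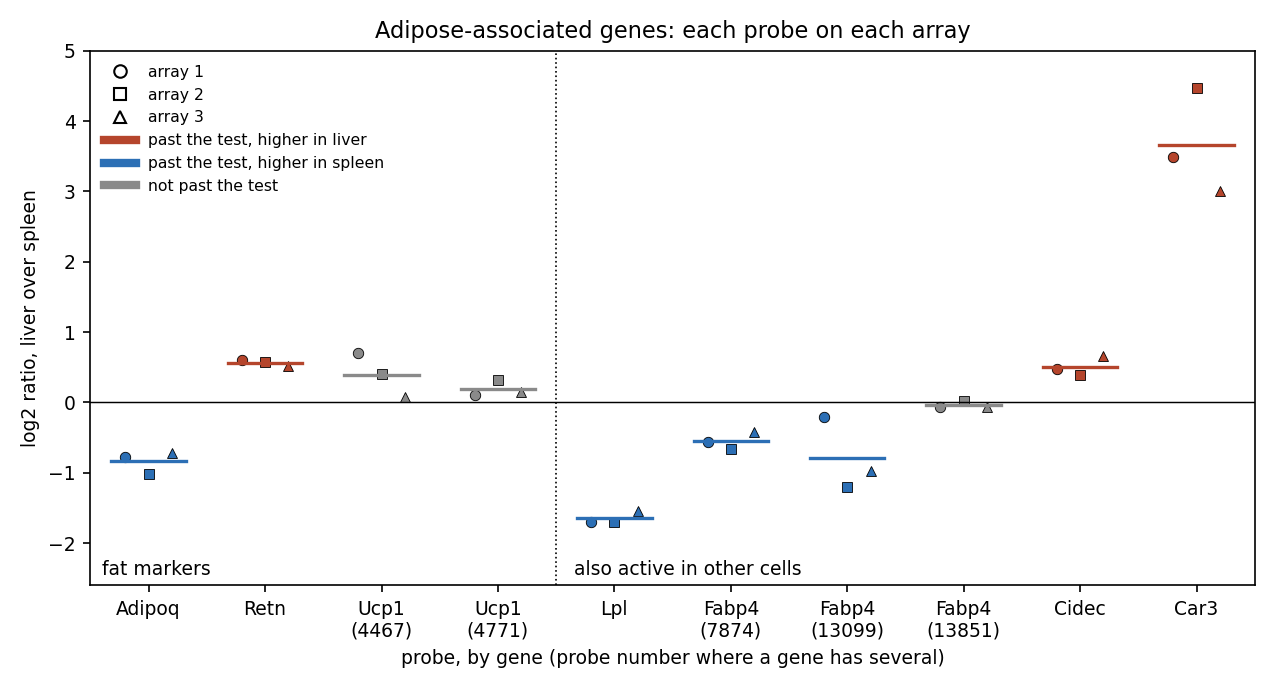
Log2 ratio of liver over spleen (vertical axis) for each of the 10 probes of adipose-associated genes. Points are the 3 arrays and bars their mean, coloured by the outcome of limma's test at an adjusted p under 0.05, with fat markers left of the dotted line. Car3 stands alone above 3 on every array, and Lpl lies below -1.5 on every array.

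Adipoq and Retn, the secreted hormones, pointed to opposite tissues. Adipoq read -0.77, -1.01 and -0.72 on arrays 1, 2 and 3. All 3 values lay on the spleen side of 0. The mean was -0.83 ± 0.16 (SD, n = 3), a 1.78-fold difference, with an adjusted p of 0.00118 by limma. Retn read 0.60, 0.58 and 0.52 on the same arrays, all on the liver side and within 0.08 of each other. Its mean was 0.56 ± 0.04 (SD, n = 3), a 1.48-fold difference, with an adjusted p of 0.00249 by limma. Only 6.63% of the probes tested had a smaller SD than the Retn probe.

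The start regions of these hormone genes are shown because their ratios had opposite signs although white fat is the known mouse source of both. Each is the 300 bases from 250 before to 50 after the start of the transcript, 5′ to 3′, from RefSeq on GRCm38.p6. The Adipoq window is chr16:23146286-23146585 and the Retn window chr8:3655520-3655819, both on the plus strand. Capitals mark matches to CCAAT on either strand and to CANNTG, the E-box, which reads the same on both strands.
Adipoq: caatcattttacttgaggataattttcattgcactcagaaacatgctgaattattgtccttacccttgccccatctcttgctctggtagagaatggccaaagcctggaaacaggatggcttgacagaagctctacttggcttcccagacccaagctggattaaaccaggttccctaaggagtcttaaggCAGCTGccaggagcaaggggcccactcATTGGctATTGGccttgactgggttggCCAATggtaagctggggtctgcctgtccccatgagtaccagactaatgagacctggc
Retn: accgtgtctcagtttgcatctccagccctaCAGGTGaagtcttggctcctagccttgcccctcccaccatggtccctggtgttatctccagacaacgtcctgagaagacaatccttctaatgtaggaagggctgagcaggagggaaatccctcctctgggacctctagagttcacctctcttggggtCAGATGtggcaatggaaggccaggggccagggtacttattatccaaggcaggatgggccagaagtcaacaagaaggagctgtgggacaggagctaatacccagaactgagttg
The Adipoq window held 3 CCAAT matches and 1 CANNTG match, and the Retn window held no CCAAT match and 2 CANNTG matches. No marked match overlapped another, and TATAAA, searched on both strands, was found in neither window. Of the 32851 windows of this length in the table, 37.4% held CCAAT, 72.3% held CANNTG and 13.6% held TATAAA. These matches are descriptions of the letters and were not tested against the ratios. Of the 7 genes, 4 were matched in the promoter table: Adipoq, Retn, Cidec and Ucp1.

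The receptors and relatives of these hormones were divided between the tissues. Of 7 probes of the adiponectin pathway tested, 2 passed toward liver and 2 toward spleen, with a median of -0.05. Each share was 28.6%, near the 23.5% toward liver and 26.7% toward spleen of all probes tested. The adiponectin receptor gene Adipor1 averaged -0.24 ± 0.07 (adjusted p = 0.0537 by limma), and Cdh13, whose product binds adiponectin at the cell surface, averaged -0.05 ± 0.39. Among the adiponectin paralogues, C1qtnf12 averaged -1.12 ± 0.12 and C1qtnf2 -0.81 ± 0.44, past the test toward spleen, while C1qtnf1 at 0.36 ± 0.17 and C1qtnf3 at 0.29 ± 0.05 passed toward liver. None of the 3 probes of the resistin relatives Retnla and Retnlb passed limma's test, and 1 of them, a Retnla probe at -0.36 ± 0.31, had an unadjusted p under 0.05. The other Retnla probe averaged -0.09 ± 0.09 and the Retnlb probe 0.22 ± 0.15, so no relative's ratio was as high as that of Retn.

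Lpl, the enzyme that frees fatty acids from circulating triglyceride, had the lowest ratio of the set. It read -1.70, -1.69 and -1.55 on arrays 1, 2 and 3. The 3 values spanned 0.15, against a mean of -1.65 ± 0.08 (SD, n = 3). The adjusted p was 6.42e-05 by limma. Only 3.3% of all probes tested had a lower mean. The named genes whose values came closest over the 3 arrays, by Euclidean distance on the log2 scale, were Rbm3 at a distance of 0.06, Mgrn1 at 0.07 and Ttc14 at 0.09.

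The partners of Lpl lay mostly on the other side. Of 11 probes of lipase relatives, cofactors and lipid uptake genes, 9 passed toward liver and 1 toward spleen, with a median of 0.73. These shares were 81.8% and 9.09%, against 23.5% and 26.7% of all probes tested. The activating cofactor Apoc2 averaged 3.85 ± 0.44 and 3.43 ± 0.12 on its probes, and the inhibiting apolipoprotein Apoc3 3.36 ± 0.31. Angptl4, a secreted inhibitor of the enzyme, averaged 2.51 ± 0.04, 1.53 ± 0.58 and 0.27 ± 0.07 on 3 probes. Gpihbp1, which holds the enzyme on the capillary wall, averaged 0.73 ± 0.13, and endothelial lipase (Lipg) 0.52 ± 0.20. The probe past the test toward spleen was Cd36, a fatty acid receptor of macrophages, capillaries and fat, at -0.97 ± 0.27. The Vldlr probe of this list read -0.79 and -0.19 on arrays 1 and 3. It was listed at 0 on array 2 and was not tested.

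Fabp4 carries fatty acids in the cytosol of fat cells, and its 3 probes disagreed. Probe 13099 read -0.20, -1.20 and -0.97 on arrays 1, 2 and 3, with a mean of -0.79 ± 0.52 (SD, n = 3) and an adjusted p of 0.0229 by limma. Its spread was wide: 96.1% of the probes tested had a smaller SD. It did not pass without array 2 (mean -0.59, adjusted p = 0.101) or without array 3 (mean -0.70, adjusted p = 0.0828). Probe 7874 read -0.57, -0.66 and -0.41, with a mean of -0.55 ± 0.12 (SD, n = 3) and an adjusted p of 0.00447 by limma. Probe 13851 read -0.06, 0.02 and -0.07, with a mean of -0.04 ± 0.05 and a 95% interval from -0.24 to 0.16, and did not pass (adjusted p = 0.713). The annotation assigns probes 7874 and 13851 to the same sequence record, yet the ranges of their values over the 3 arrays did not overlap. Whether probes of these related genes share signal was not resolved here. With the probes averaged on each array, Fabp4 stood at -0.46 ± 0.17 (SD, n = 3) with an adjusted p of 0.0103 by limma.

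The other fatty acid binding proteins passed mostly toward liver. Of their 11 probes, 6 passed toward liver and 1 toward spleen, with a median of 0.60. These shares were 54.5% and 9.09%, against 23.5% and 26.7% of all probes tested. The passing probes of Fabp6 and Fabp9, at 0.60 ± 0.46 and 1.33 ± 0.54, were not matched by other probes of these genes. Those averaged -0.24 ± 0.19 for Fabp6 and -0.24 ± 0.28 for Fabp9, and did not pass. The liver form Fabp1 averaged 4.53 ± 0.40, and another of its probes read 6.13 and 6.15 on arrays 1 and 2 and was listed at 0 on array 3. The intestinal form Fabp2 averaged 3.86 ± 0.66 and 2.76 ± 0.12 on its probes, and the heart and muscle form Fabp3 0.64 ± 0.21. Fabp5, which fat cells and macrophages also make, was the form past the test toward spleen, at -0.30 ± 0.16 on 1 probe (adjusted p = 0.0478 by limma), while its other probe averaged 0.05 ± 0.09.

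**Figure D2:**
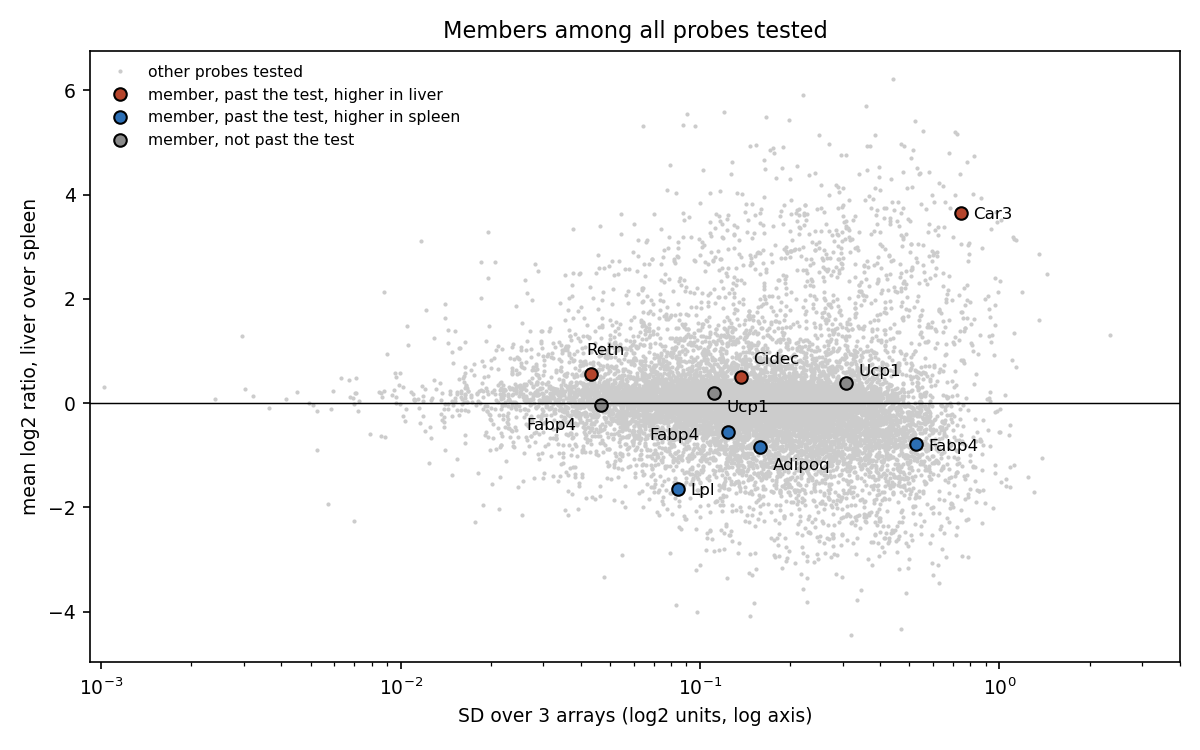
Mean log2 ratio of liver over spleen against the SD over 3 arrays (log axis) for the 14122 probes tested, with the 10 member probes named. Lpl and Retn combine small SDs of 0.08 and 0.04 with means of -1.65 and 0.56, while Car3 and 1 Fabp4 probe have SDs of 0.74 and 0.52.

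Cidec, which fuses lipid droplets into larger ones, read 0.47, 0.39 and 0.65 on arrays 1, 2 and 3. All values were on the liver side. The mean was 0.50 ± 0.14 (SD, n = 3), a 1.42-fold difference, with an adjusted p of 0.00676 by limma. Of 13 probes of other CIDE and droplet genes, 9 passed toward liver and 1 toward spleen. These shares were 69.2% and 7.69%, against 23.5% and 26.7% of all probes tested. Their median was 0.44, near the value of Cidec, but they ranged widely, from -0.87 to 2.69. Plin2, the droplet coat protein of many cell types, averaged 2.69 ± 0.08, and G0s2, an inhibitor of the main triglyceride lipase, 2.24 ± 0.22 and 1.21 ± 0.31. Plin4, a coat protein of fat cells, averaged 0.44 ± 0.08. The relatives Cidea and Cideb had 2 probes each: those of Cideb, the liver form, averaged 0.45 ± 0.16 and 0.07 ± 0.07, and those of Cidea, the brown fat form, -0.87 ± 0.18 and 0.24 ± 0.15. The lower Cidea probe passed toward spleen (adjusted p = 0.00116 by limma), and the other did not pass.

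Ucp1 lets protons leak into the mitochondrial matrix and is the defining gene of brown fat. Its probe 4467 read 0.70, 0.40 and 0.08 on arrays 1, 2 and 3, and its probe 4771 read 0.10, 0.32 and 0.15. All 6 values lay above 0. The means were 0.39 ± 0.31 and 0.19 ± 0.11 (SD, n = 3 each), with adjusted p-values by limma of 0.0563 and 0.122. The 95% intervals, not adjusted for the number of probes, ran from 0.06 to 0.73 and from -0.03 to 0.41. Probe 4467 passed without array 3 (mean 0.55, adjusted p = 0.0216) and with a variance trend and robust prior (adjusted p = 0.0409), and the average of the 2 probes passed at 0.29 ± 0.15 (adjusted p = 0.0419). Both intervals lie within 2-fold, but they describe only the ratios on these arrays. The level of Ucp1 in either tissue was not used.

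Of 7 probes of the relatives of Ucp1, 2 passed toward liver and 2 toward spleen, with a median of -0.27. Each share was 28.6%, near the shares of all probes tested (23.5% toward liver and 26.7% toward spleen). The Ucp3 probes averaged 0.30 ± 0.05, past the test toward liver, and 0.07 ± 0.14, while Slc25a14 averaged -0.29 ± 0.06, past the test toward spleen (adjusted p = 0.0307 by limma). The ADP/ATP carriers of the same family differed between probes, with Slc25a4 at -1.87 ± 0.12 and -0.27 ± 0.15 and Slc25a5 at 1.03 ± 0.05 and -0.37 ± 0.31. Of 15 probes of other brown fat genes, 6 passed toward liver and 1, the Cidea probe above, toward spleen. These shares were 40% and 6.67%, against 23.5% and 26.7% of all probes tested. In either direction 46.7% passed, against 50.2% of all probes tested. The median was 0.22. The fatty acid elongase Elovl3 averaged 3.60 ± 0.21 on 1 probe and 0.08 ± 0.16 on the other. The coactivator Ppargc1a, also active in liver, averaged 1.21 ± 0.20. The cytochrome oxidase subunits Cox7a1, at 0.89 ± 0.13 and 0.53 ± 0.20, and Cox8b, at 0.61 ± 0.22, are made in brown fat and in muscle and passed toward liver.

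Car3, a carbonic anhydrase of low activity, had the largest ratio of the set. It read 3.49, 4.46 and 3.01 on arrays 1, 2 and 3. The values were far above 0 on every array, yet spanned 1.46 and were lowest on array 3. Across all probes, ratios were narrower on array 3 (SD over probes of 0.896, against 1.00 and 1.01 on arrays 1 and 2). Whether this bears on the spread of Car3 was not tested, and Car3 also differed between arrays 1 and 2. The mean was 3.65 ± 0.74 (SD, n = 3), with an adjusted p of 0.000236 by limma. Of all probes tested, 99.2% had a lower mean and 99.0% a smaller SD. The named genes nearest to Car3 over the 3 arrays were Ang2 at a Euclidean distance of 0.21, the plasma glycoprotein gene Hrg at 0.37 and the bile acid enzyme gene Cyp8b1 at 0.44. The Hrg probe read 3.29, 4.77 and 2.94, so it too was highest on array 2 and lowest on array 3.

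The carbonic anhydrases were split between the tissues. Of 10 probes of other members, 2 passed toward liver and 4 toward spleen, with a median of -0.04. These shares were 20% and 40%, against 23.5% and 26.7% of all probes tested. Car5a, the mitochondrial form of liver, averaged 2.67 ± 0.47, and the membrane form Car14 1.18 ± 0.40. The red cell form Car2 averaged -2.93 ± 0.40 and -2.20 ± 0.19, Car13 -1.07 ± 0.30 and Car15 -0.37 ± 0.04. Car1, another red cell form, read -1.32 on array 2 and had an exact 0 on arrays 1 and 3. The ratio of Car3 was higher than that of every other family probe measured on 3 arrays, the next being Car5a.

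**Figure D3:**
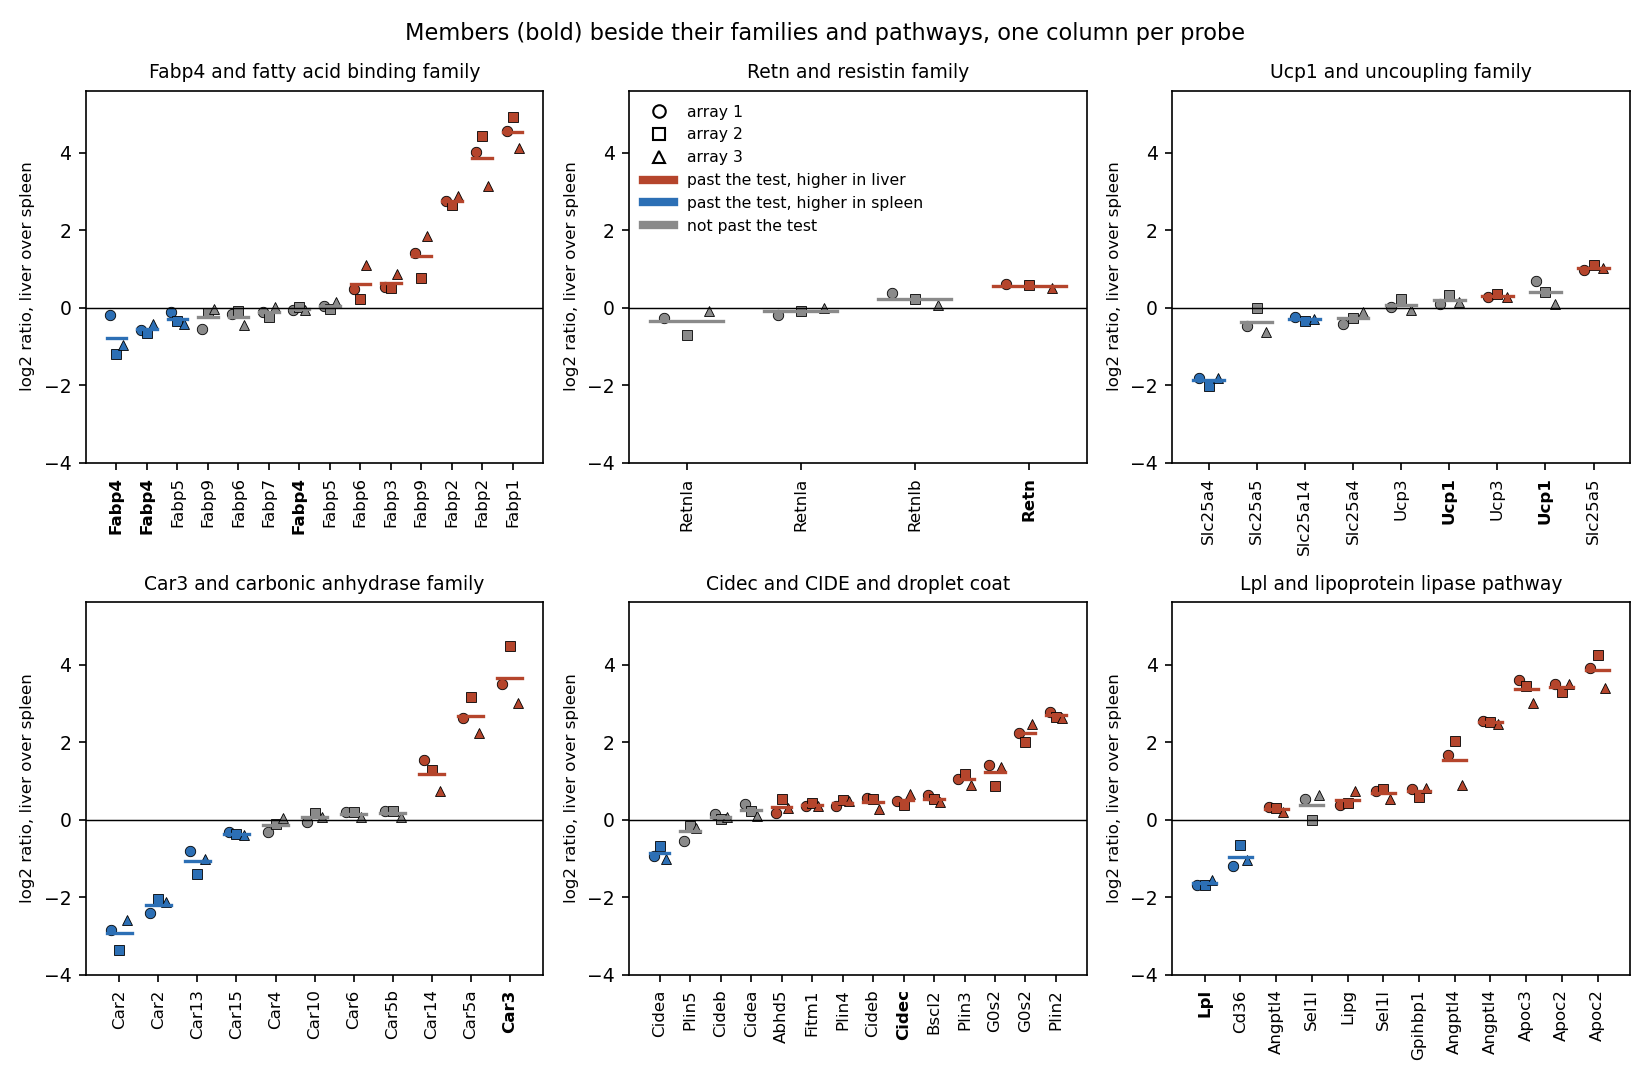
Log2 ratio of liver over spleen for the member genes (bold) and the other measured probes of their families or pathways, 1 column per probe, with points for the 3 arrays and bars for the mean. Car3 and Retn have the highest means in their panels and Lpl the lowest, and the means of the Fabp4 probes lie below 0 while those of Fabp1 and Fabp2 lie above 2.

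Ordered by mean, the probes ran from Lpl through Adipoq, Fabp4 probes 13099, 7874 and 13851, Ucp1 probes 4771 and 4467, Cidec and Retn to Car3. Lpl lay below Adipoq on every array, by 0.68 to 0.93. Car3 lay above Retn on every array, by 2.49 to 3.89. Fabp4 probe 13851 was separated from both of its neighbours without overlap. The other neighbours changed places between arrays: Adipoq and Fabp4 probe 13099 differed by 0.04 with an SD of 0.46, and Cidec and Retn by 0.06 with an SD of 0.17.

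Other genes of white fat cells were also divided between the tissues. Of 32 listed, 23 had a probe. Of 21 probes measured on all arrays, 7 passed toward liver and 5 toward spleen, with a median of 0.14. These shares were 33.3% and 23.8%, against 23.5% and 26.7% of all probes tested. Those highest in liver are also known liver genes, the plasma protein Orm1 at 4.62 ± 0.78, the lipogenic factor Thrsp at 3.34 ± 0.07 and the glycerol phosphate enzyme Gpd1 at 2.14 ± 0.08. Another Thrsp probe averaged -0.14 ± 0.26. Plin4, the coat protein of fat cells, at 0.44 ± 0.08, and Aqp7, at 0.33 ± 0.13, also passed toward liver. Toward spleen, the insulin-regulated glucose carrier Slc2a4 averaged -1.21 ± 0.16, Cd36 -0.97 ± 0.27 and caveolin (Cav1) -0.78 ± 0.46. The defining genes of fat cells beside Adipoq gave little: 1 leptin (Lep) probe was listed at 0 on every array and the other read -0.19 and -0.25 on arrays 1 and 3 and 0 on array 2. The hormone-sensitive lipase gene Lipe averaged 0.19 ± 0.32 and did not pass (adjusted p = 0.279). The desaturase Scd1, abundant in fat and liver, read -2.39 and -1.23 on arrays 1 and 3 and was listed at 0 on array 2.

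The transcription factors of fat cell differentiation passed toward liver or not at all as the values were deposited. Pparg, the master regulator, averaged -0.05 ± 0.06 on 1 probe (adjusted p = 0.653 by limma), and its other probe was listed at 0 on every array. Of 13 probes, 6 passed toward liver and 0 toward spleen by limma, and 2 had an unadjusted p under 0.05 toward spleen. The share toward liver was 46.2%, against 23.5% of all probes tested, and toward spleen 0% against 26.7%. In either direction it was 46.2%, against 50.2% of all probes tested. With each array centred on its median, 1 passed toward spleen. The factors Klf15, Cebpb and Srebf1, which liver also uses, averaged 3.06 ± 0.24, 2.76 ± 0.12 and 1.52 ± 0.17, with a second Cebpb probe at 1.98 ± 0.38. Cebpa, at 0.97 ± 0.08, also passed toward liver.

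Markers of other cells that can carry these genes were read beside them, and their part in the ratios was not tested. For Lpl and Fabp4, 18 probes of macrophage genes split into 9 toward liver and 7 toward spleen. These shares were 50% and 38.9%, against 23.5% and 26.7% of all probes tested. The macrophage probes ran from -2.08 for the splenic scavenger receptor Marco to 3.03 for Apoe. Csf1r averaged -1.98 ± 0.14, past the test toward spleen, and Cd5l 0.97 ± 0.06 on its higher probe, toward liver. Trem2 passed toward spleen on 1 probe, at -0.49 ± 0.28, and toward liver on others, at 0.24 ± 0.02 and 0.31 ± 0.08. With the probes of a gene averaged, 5 of the 13 macrophage genes passed toward liver and 6 toward spleen, against 25.3% and 27.4% of all genes. Of 11 endothelial probes, 2 passed toward liver (18.2%) and 1 toward spleen (9.09%), with a median of 0.05 and a range from -0.66 to 0.73. For Car3, 14 of 20 skeletal muscle probes passed toward liver (70%) and 2 toward spleen (10%), with a median of 0.54. Actn3 averaged 4.01 ± 0.14, Acta1 2.91 ± 0.20 and Mb 2.58 ± 0.51 on its higher probe, while another Actn3 probe averaged 0.13 ± 0.36, and another Mb probe -0.08 ± 0.07. The muscle probes past the test toward spleen were the myosin heavy chain Myh4 at -0.68 ± 0.36 and the muscle creatine kinase Ckm at -0.40 ± 0.13. Of 13 hepatocyte probes, 12 passed toward liver (92.3%), with a median of 4.86, so Car3 lay below most of them.

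For Adipoq, tissue next to the spleen was looked at through markers of pancreas and of the covering mesothelium, whose part in its ratio was not tested either. Of 12 pancreatic enzyme probes, 8 passed toward spleen and 1 toward liver, with a median of -0.39. These shares were 66.7% and 8.33%, against 26.7% and 23.5% of all probes tested. The lowest were Pnliprp1 at -0.59 ± 0.07, Rnase1 at -0.55 ± 0.04 and Cela1 at -0.46 ± 0.02. The probe toward liver was Cela2a at 0.29 ± 0.03, while its other probe passed toward spleen at -0.43 ± 0.06. Of 6 mesothelial probes, 2 passed toward liver (33.3%) and 0 toward spleen. These were the epithelial keratins Krt8 and Krt18, which hepatocytes also make, at 3.70 ± 0.21 and 2.65 ± 0.23. The mesothelial gene Msln averaged -0.22 ± 0.11 and 0.01 ± 0.10 and did not pass on either probe. Muc16 at -0.07 ± 0.13 and Krt19 at -0.02 ± 0.41 did not pass either. Of 16 probes of splenic blood and stromal cells, 15 passed toward spleen (93.8%), with a median of -2.62. Adipoq, at -0.83, lay closer to 0 than each of those 15.

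**Figure D4:**
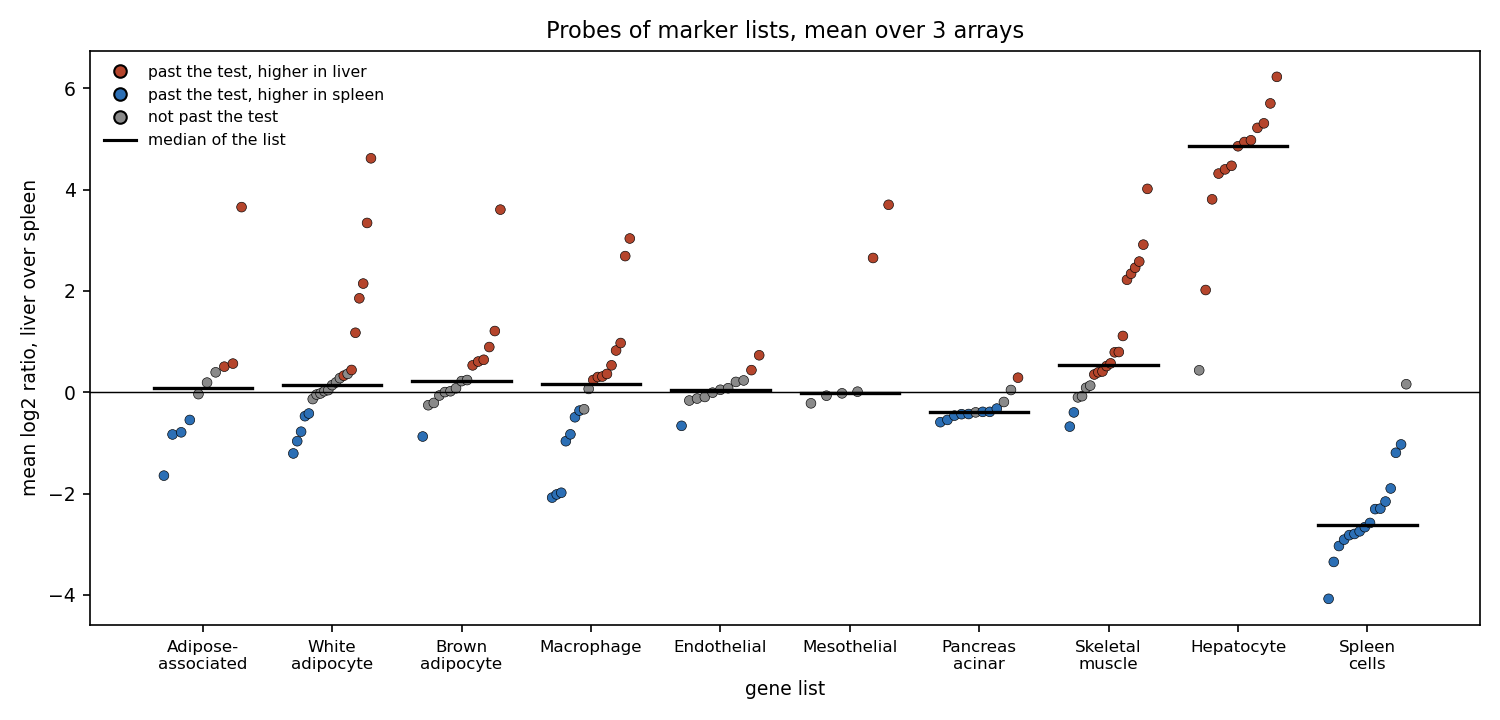
Mean log2 ratio of liver over spleen for each measured probe of the adipose-associated genes and of 9 marker lists, coloured by the outcome of limma's test, with a bar at each list's median. The adipose-associated genes spread from -1.65 to 3.65 around a median of 0.08, whereas hepatocyte and spleen cell probes centre on 4.86 and -2.62.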

How the data were processed

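The authors deposited 1 table of log2 ratios for 16281 probes on 3 arrays. The log base was inferred from the values: the highest deposited value is 6.64 on every array, the log2 of 100. How the authors corrected background, normalized dyes and oriented the ratio is not given in the sources used here. The median of each column is 0 with exact zeros kept, and 0.023, 0.038 and 0.008 on arrays 1, 2 and 3 without them. The 1414, 1098 and 1137 exact zeros on arrays 1, 2 and 3 were taken as no measurement.

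Probes were named from the platform annotation, which gives 1 symbol for 13738, several for 52 and none for 2491. Each probe with values on all 3 arrays entered a fit in limma 3.58.1 (R 4.3.3) that tests its mean against 0 (intercept-only fit, 3.38 prior degrees of freedom, two-sided p, Benjamini-Hochberg adjustment over 14122 probes). The code was tested on simulated data. For arrays there is no read depth, and precision rests on how many were hybridized.

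The members and the 17 related lists were chosen with earlier results of these data known. Named genes were all members, any measured gene of their families, pathways and the fat lists, the 3 largest per direction past the test in other lists, and the 3 genes nearest to Lpl and to Car3. Further probes of named muscle and pancreatic genes, and Trem2, Msln, Muc16 and Krt19, were chosen after their values were seen.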

Additional observations from a re-analysis of the deposited data

How the results depend on the processing

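No paired analysis was possible because the 3 arrays form 1 group and each ratio already holds both tissues. The count of member probes past the test was 3 toward liver and 4 toward spleen. Leaving out 1 array gave 3 to 4 toward liver and 3 to 4 toward spleen, and over all probes 2381 to 2746 toward liver and 2939 to 3334 toward spleen. With a 2-fold limit added, 1 member probe remained toward liver and 1 toward spleen, and over all probes 1250 and 1290. Centring each array gave 1 adipocyte transcription probe and 2 CIDE and droplet probes toward spleen. It also gave 3 adiponectin pathway and 3 uncoupling family probes toward spleen. Macrophage probes then stood at 8 toward liver and 8 toward spleen. Averaging the probes of a gene counts genes in place of probes. It gave 0 fatty acid binding genes and 3 adiponectin pathway genes toward spleen. Toward liver it gave 1 uncoupling family gene, 5 macrophage genes and 0 pancreatic genes. Smaller changes in the related lists are not all given. No member probe changed sign in any of these settings, nor with arrays scaled to a common spread, exact zeros kept, probes measured on at least 2 arrays added, or a variance trend with a robust prior. The members that gained or lost their call were Ucp1 and Fabp4, apart from the 2-fold limit. The precision is limited by 3 arrays of 1 dye orientation.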
